A study of Mus musculus with 24 samples.

Results

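Schwann cell and myelin genes were followed in mouse gastrocnemius, a muscle of the calf, as a measure of how much nerve each sample of muscle held. The set was given by name and holds 8 genes of the 55385 genes counted: Mbp, Pmp22, Prx, Mag, S100b, Sox10, Ngfr and Cnp. All 8 were among the 17803 genes that passed a filter on low counts. RNA from whole muscle of C57BL/6J mice was sequenced in 24 libraries, 1 from each mouse, in 6 groups of 4. By the study's methods, the mice that received a vector were female. Young GFP (3 to 6 months old), old GFP (21 to 24 months) and oldest-old GFP (27 to 29 months) mice had received an AAV8 vector that carries green fluorescent protein, while the old AAV-Kl group and the oldest-old AAV-Kl group had received the same vector with mouse Klotho (Kl). The vector was given into the tail vein at 3e8 vector genomes per mouse, 14 days before the muscle was taken, and its LP-1 promoter is active in liver, so that both proteins were made outside the muscle. A sixth group, young sham, is labelled as sham-treated, with no vector named. The study's methods do not describe it, so its sex and its age in months are not given. Its 4 libraries are taken as 4 mice. The groups thus differ in age within GFP mice, in Klotho at 2 ages, and in the vector in young mice. Young GFP libraries enter 3 of these comparisons, as the reference for both older GFP groups and as the treated group against sham, and old GFP libraries are the reference of 2, so comparisons that share libraries are not independent.

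In GRCm38 with GENCODE M21 gene models, Mbp (ENSMUSG00000041607.17) spans 82475146 to 82585637 of chromosome 18. Pmp22 (ENSMUSG00000018217.12), Ngfr (ENSMUSG00000000120.6) and Cnp (ENSMUSG00000006782.16) lie on chromosome 11, at 63128982 to 63159547, 95568818 to 95587735 and 100574904 to 100591729. Prx (ENSMUSG00000053198.14) and Mag (ENSMUSG00000036634.15) lie on chromosome 7, at 27499324 to 27520214 and 30899176 to 30914873. S100b (ENSMUSG00000033208.7) is on chromosome 10 from 76253853 to 76261159, and Sox10 (ENSMUSG00000033006.10) on chromosome 15 from 79154908 to 79165240. Reads were counted over all exons of a gene without regard to strand. Exons of Prx overlap those of the antisense gene Gm15541 and exons of Cnp overlap those of Dnajc7, and reads on the overlaps cannot be told apart.

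Schwann cells are the glia of peripheral nerve. Those that ensheath a large axon wrap it in myelin, a stack of their own membrane rich in lipids and in a few proteins, while others hold bundles of thin axons without myelin or cap the nerve terminal at the neuromuscular junction. When an axon is lost, Schwann cells switch off myelin genes and take on a repair state, in which they divide, clear myelin and release growth factors. SOX10 is the transcription factor that every stage of the lineage needs, and EGR2 acts with it to turn on the myelin genes. Among myelin proteins, MBP holds the inner faces of the membrane together, and PMP22 is a membrane protein whose gene dosage causes inherited neuropathies.

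The bases just upstream of 3 members are shown because SOX10 is the factor common to the set and binds short motifs of the SOX family. Capitals mark ACAAAG, or CTTTGT, which is ACAAAG read on the other strand. The stretches come from RefSeq (GRCm38.p6) and run 5′ to 3′ on the strand of the gene. That of Prx covers 27499074 to 27499323 of chromosome 7, that of Mag 30914923 to 30915172 of chromosome 7 (minus strand), and that of Cnp 100574689 to 100574903 of chromosome 11. The stretch of Cnp is 215 bases long, since the 35 bases next to the RefSeq start lie inside the GENCODE gene and are left out.
Prx: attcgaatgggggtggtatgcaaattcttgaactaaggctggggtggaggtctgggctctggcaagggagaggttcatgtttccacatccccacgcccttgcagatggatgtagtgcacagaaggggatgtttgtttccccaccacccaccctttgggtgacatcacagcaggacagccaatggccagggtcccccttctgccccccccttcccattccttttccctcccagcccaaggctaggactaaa
Mag: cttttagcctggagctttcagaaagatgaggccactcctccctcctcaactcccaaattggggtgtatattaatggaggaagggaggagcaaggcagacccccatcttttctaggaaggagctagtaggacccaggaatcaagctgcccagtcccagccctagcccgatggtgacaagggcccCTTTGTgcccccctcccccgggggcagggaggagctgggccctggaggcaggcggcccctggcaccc
Cnp: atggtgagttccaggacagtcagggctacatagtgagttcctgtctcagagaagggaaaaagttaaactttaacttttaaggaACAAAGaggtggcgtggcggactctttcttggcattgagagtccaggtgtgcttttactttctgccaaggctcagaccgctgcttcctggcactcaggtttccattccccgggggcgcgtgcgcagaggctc

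The motifs ACAAAG and ACAATG were searched on both strands in the 250 bases upstream of each RefSeq start. Cnp held ACAAAG 132 bases before the end of the stretch shown, which is 167 bases before its RefSeq start, and Mag held it, on the opposite strand, 67 bases before the start shown. Prx held neither motif in its 250 bases. Mbp was left out of the search and Sox10 had no entry. Among the 6 members searched, which have 11 starts, 3 starts of 2 members held a match. The share of all 32851 mouse promoters of this length was 16.5% for ACAAAG, 10.7% for ACAATG and 25.2% for either. A match of 6 bases is a description of the letters and not a binding site.

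Each library held 36415886 to 59733985 reads on genes, and levels are given as CPM, the read count scaled to the library's total on genes after TMM normalization, at 1e6 reads. The 6 genes of skeletal muscle fiber listed summed to between 100076 and 151230 CPM. Kl itself had 0 to 33 reads in every library and 2 to 9 in oldest-old AAV-Kl mice, so muscle RNA does not check which mice received Klotho. The mean log2 CPM of 10 keratinocyte genes was above 1 in 5 libraries, with a summed level of 159 CPM in young sham mouse 4, 142 and 418 CPM in young GFP mice 1 and 3, 96.6 CPM in old AAV-Kl mouse 2 and 51.8 CPM in oldest-old AAV-Kl mouse 4. Among 9 hepatocyte genes found, old GFP mice 1 and 4 had 911 and 96.1 CPM and old AAV-Kl mouse 4 had 145 CPM, against at most 23.8 CPM elsewhere. These 5 and 3 libraries are called those with keratinocyte and with hepatocyte RNA. They were left out in further fits. Leaving out the 5 takes young GFP mice 1 and 3 out of every comparison with young GFP mice. Leaving out the 3 takes old GFP mice 1 and 4 out of every comparison with old GFP mice. The part of foreign RNA in the results was not otherwise tested. In whole muscle, fewer Schwann cells and less RNA per Schwann cell cannot be told apart, and nothing in the labels gives the amount of nerve taken with each muscle.

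All 8 members were detected in all 24 libraries. Over the 24 libraries, Pmp22 ranged from 24.2 to 95.7 CPM (1262 to 5008 reads) and Mbp from 23.4 to 87.6 CPM (1133 to 4584 reads). Prx, a scaffold protein of the Schwann cell membrane that faces away from the axon, ranged from 5.52 to 23.9 CPM. Cnp, an enzyme of non-compact myelin, ranged from 6.15 to 12.95 CPM. The lower members were Sox10 (2.09 to 5.71 CPM), Ngfr (0.966 to 5.06 CPM), S100b (1.07 to 4.01 CPM) and Mag (0.479 to 2.04 CPM, 25 to 107 reads). MAG is the myelin protein that contacts the axon, S100B a calcium-binding protein of Schwann cells, and NGFR the low-affinity neurotrophin receptor of non-myelinating and repair Schwann cells and of some vessel and connective tissue cells. Counting error is therefore largest for Mag.

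Per kilobase of exon, the mean level over 24 libraries was 20.9 CPM for Pmp22, 5.62 for Mbp, 2.59 for Cnp, 2.38 for Prx, 1.68 for S100b, 1.16 for Sox10, 0.642 for Ngfr and 0.286 for Mag. Acta1, the actin of the muscle fiber, had 22453 CPM per kilobase. Genes of oligodendrocytes, the myelinating cells of brain and spinal cord, gave no level past the filter for any of 5 genes listed, with at most 28 reads in a library. The order from Pmp22 down to Mag is that of these measured levels, and lengths count all exons of a gene rather than the transcript in use. For Prx and Cnp the lengths include the exon overlaps whose reads were left out.

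**Figure D1:**
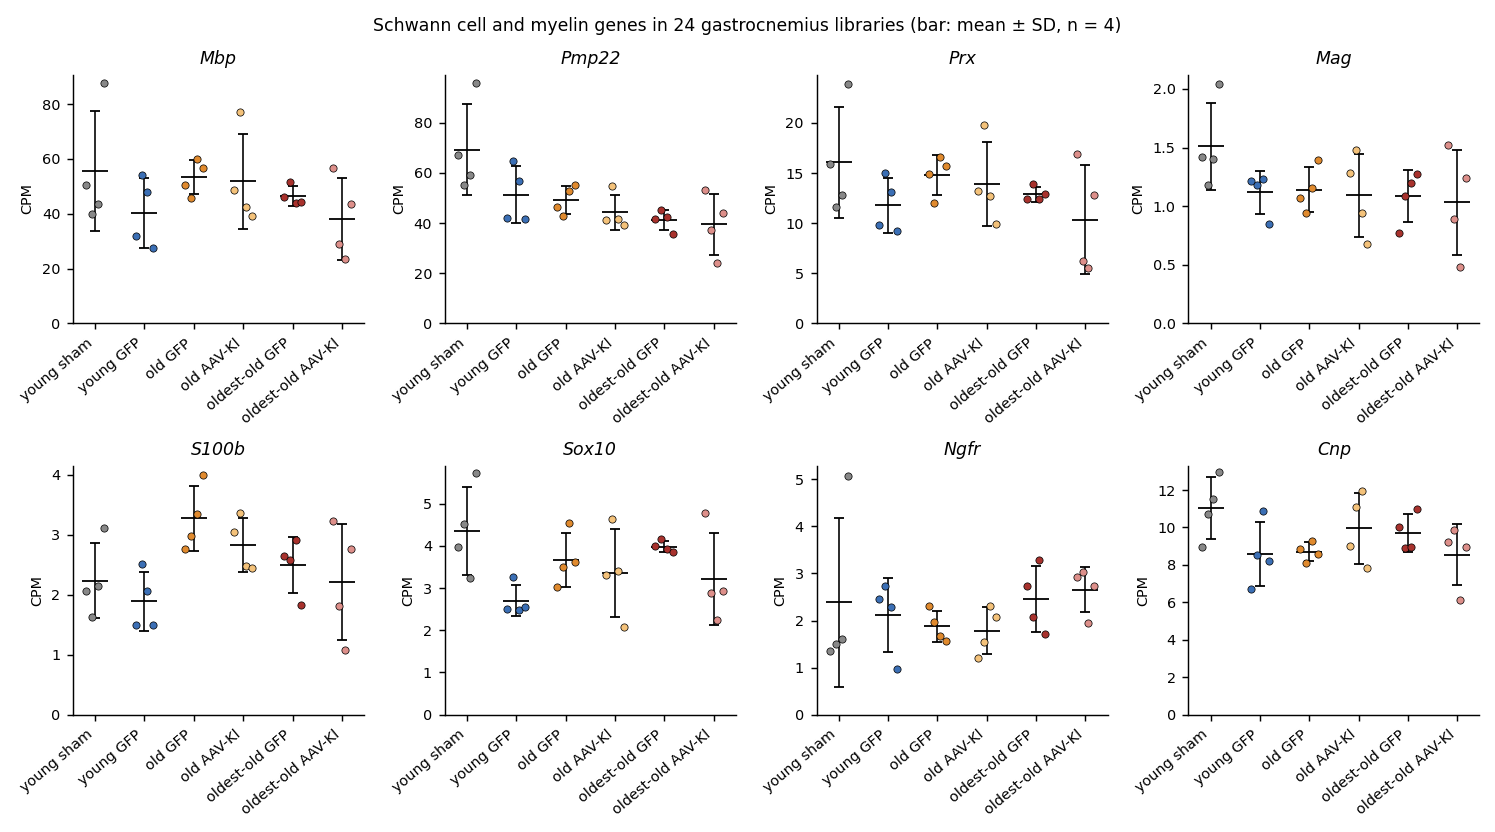
Levels of the 8 genes in CPM, each point 1 mouse and each bar the mean ± SD of 4 mice of a group, in the 6 groups. Young sham mouse 4 is the highest library for Mbp, Pmp22, Prx, Mag, Sox10, Ngfr and Cnp, and oldest-old AAV-Kl mouse 3 is the lowest for Mbp, Pmp22, Prx, Mag, S100b and Cnp.

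Individual mice differed more than groups did. Mbp was 31.8, 54.1, 48.0 and 27.4 CPM in young GFP mice, 50.6, 45.9, 59.9 and 56.9 in old GFP mice, and 46.1, 51.6, 43.9 and 44.2 in oldest-old GFP mice. It was 50.6, 40.1, 43.7 and 87.6 CPM in young sham mice. With AAV-Kl it was 48.6, 77.2, 42.5 and 39.2 CPM in old mice and 56.7, 29.04, 23.4 and 43.5 in oldest-old mice. Young GFP mice split into a lower and a higher pair, the oldest-old GFP mice lay close together, and every pair of groups compared overlapped. The SD within groups, pooled over the 6 groups on the log2 scale, was 0.42 for Mbp, 0.44 for Prx, 0.41 for Mag, 0.40 for S100b, 0.32 for Sox10, 0.30 for Pmp22, 0.23 for Cnp and 0.53 for Ngfr. The median of all genes tested was 0.23, so 7 of the 8 members varied more between mice of 1 group than the middle gene did.

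The members varied together from mouse to mouse. Across the 24 libraries Prx followed Mbp with a Pearson r of 0.96 (Spearman rho 0.95, and r 0.93 without the 2 libraries farthest from the median of Mbp). For S100b and Mbp r was 0.81 (rho 0.81, and 0.78 without the 2 libraries). Pmp22 and Mbp had r 0.77 (rho 0.64), 0.55 without the 2 libraries and 0.94 once each group's mean was removed. Sox10 and Mag had r 0.75 with Mbp, with rho 0.70 and 0.61, and 0.62 and 0.54 without the 2 libraries. Cnp was looser, with r 0.57, rho 0.30, and 0.27 without the 2 libraries. These r are descriptions over 24 libraries that share a common scaling, and genes of 1 sample of nerve are not independent.

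Ngfr followed the others least over the 24 libraries. Its r with Mbp was 0.23, its rho 0.03, and without the 2 libraries r was -0.03. With group means removed its r was 0.46 with Mbp, 0.51 with Pmp22 and 0.45 with S100b, beside 0.52 for Cnp and Mbp. It was lower with the other members, at 0.36 with Prx, 0.31 with Cnp, 0.27 with Mag and 0.23 with Sox10. Over all 28 pairs of members r ran from 0.13 to 0.96 with a median of 0.57. The 7 pairs with Ngfr ran from 0.13 to 0.23, and the 21 other pairs from 0.35 to 0.96.

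**Figure D2:**
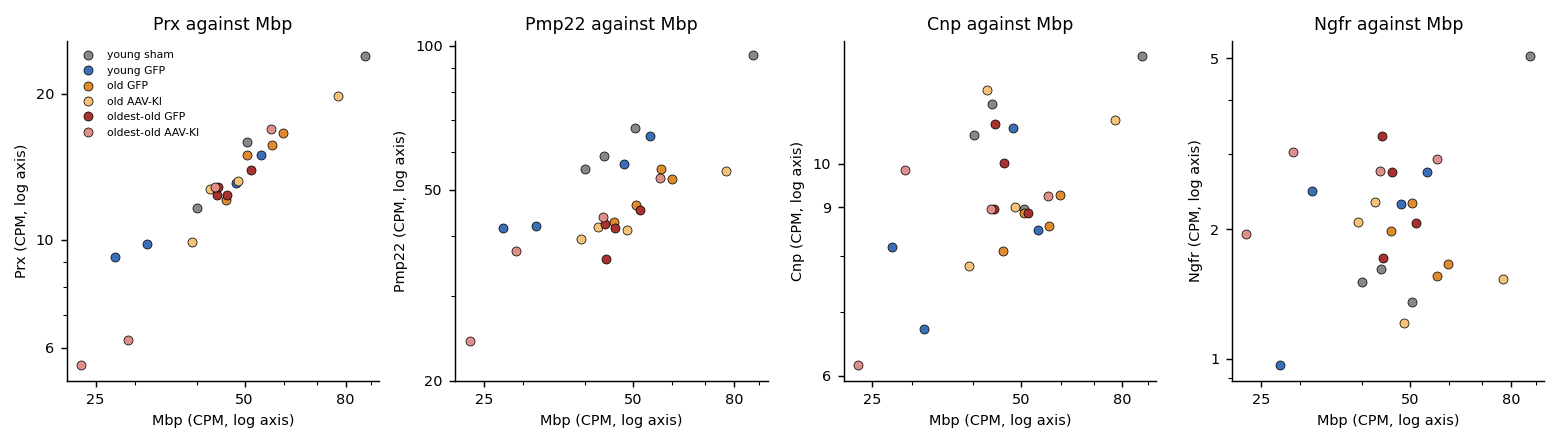
Level of Prx, Pmp22, Cnp and Ngfr in CPM against that of Mbp in the same library, both on log axes, with each point 1 of 24 mice and colours giving the group. Prx lies along a line with Mbp (r 0.96), Pmp22 lies lower at a given Mbp in old GFP and oldest-old GFP mice than in young mice, and Ngfr shows little relation (r 0.23).

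A score for each library, the mean over the 8 members of log2 CPM standardized across libraries, ranked the mice. It was highest in young sham mouse 4, at 2.005, and lowest in oldest-old AAV-Kl mouse 3, at -2.11, followed by young GFP mouse 4 at -1.20. Total reads on genes had r -0.12 with the score (rho -0.25, and -0.13 without the 2 libraries farthest from the median). Keratinocyte RNA, which is high in young sham mouse 4, had r 0.34 over all libraries (rho 0.25) and 0.09 without the 2 libraries. The adipocyte list had r 0.50 (rho 0.42, and 0.29 without them), and the fibroblast list r 0.40 (rho 0.08, and -0.05 without them).

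Genes outside the set were ranked by how closely their level followed the score. Ranked by r over 24 libraries among 17795 genes, the first 10 included Bcas1 (0.92), Plekha4 (0.91), Cadm4 (0.88), Mal (0.88), Fam178b (0.85), Cldn19 (0.84), Aatk (0.84), Nfasc (0.83) and Cd9 (0.83). Cadm4 is an adhesion protein along the internode, Mal a proteolipid of myelin, Cldn19 a tight junction protein of Schwann cells, and Nfasc encodes the neurofascins of the paranode and node. Of these 10 genes, 4 belong to a list of 18 other Schwann cell and myelin genes, and 6 were again among the first 10 when group means were removed. In all, 8 of the 18 listed genes fell among the first 100. As a whole that list followed the score with r 0.93 (rho 0.89, and 0.92 without the 2 libraries). The perineurium list, the sheath around nerve fascicles, had r 0.77 (rho 0.52, and 0.57 without the 2 libraries), while the list of repair and non-myelinating Schwann cells had r 0.03 (rho 0.04, and 0.40 without them).

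The first comparison by age set old GFP against young GFP mice. S100b was higher in old mice, with 2.77, 2.98, 3.36 and 4.01 CPM against 1.498, 2.51, 2.07 and 1.497 in young GFP mice. Every old mouse was above every young GFP mouse, but young sham mice, at 2.06, 1.63, 2.15 and 3.11 CPM, overlapped the old. The means were 3.28 ± 0.54 and 1.89 ± 0.49 CPM (SD, n = 4), a log2 fold change of 0.79 (95% interval 0.23 to 1.35). Its p-value in edgeR's quasi-likelihood test was 0.0081 before and 0.101 after Benjamini-Hochberg adjustment over all genes tested, so it did not pass the threshold of 0.05. It was the member with the smallest p.

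Across the 8 members, 0 passed an adjusted p of 0.05 between old and young GFP mice in edgeR, and 0 in DESeq2, and 1 had an unadjusted p under 0.05. Of all 17803 genes 4.7% passed the adjusted threshold, 3.21% were higher in old mice at that threshold, and 19.1% had an unadjusted p under 0.05. The single member whose groups did not overlap compares with 8.69% of all genes that lay wholly higher in old mice. For Sox10 the log2 fold change was 0.44 (interval -0.03 to 0.91, adjusted p = 0.297 in edgeR) and for Mbp 0.40 (-0.18 to 0.98, adjusted p = 0.469 in edgeR). Prx stood at 0.33, Mag at 0.02, Cnp at 0.02, Pmp22 at -0.06 (-0.47 to 0.36) and Ngfr at -0.17 (-0.93 to 0.60). The median of the 8 log2 fold changes was 0.18, beside 0.00 for all genes tested, and 6 of 8 were positive. Without young GFP mouse 4 the median was 0.11 with 4 of 8 positive, and leaving out any other single mouse gave 0.14 to 0.26.

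The second comparison by age set oldest-old GFP against the same young GFP mice. Here Sox10 was the member with the smallest p. It was 3.99, 4.15, 3.93 and 3.85 CPM in oldest-old GFP mice and 2.50, 3.26, 2.48 and 2.56 in young GFP mice. The groups did not overlap, yet young sham mice, at 3.97, 4.51, 3.24 and 5.71 CPM, surrounded the oldest-old values. Means were 3.98 ± 0.13 and 2.7 ± 0.37 CPM (SD, n = 4), a 1.47-fold difference and a log2 fold change of 0.56 (interval 0.09 to 1.03, adjusted p = 0.099 in edgeR).

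In this comparison 0 of 8 members passed the adjusted threshold in edgeR and 0 in DESeq2, and 1 had an unadjusted p under 0.05. Of all genes 14.9% passed it, 8.8% as higher in oldest-old mice, and 29.8% had an unadjusted p under 0.05. One member lay wholly higher, where 10.4% of all genes did. S100b had a log2 fold change of 0.40 (interval -0.16 to 0.96, adjusted p = 0.345 in edgeR) and Pmp22 of -0.31 (-0.73 to 0.11, adjusted p = 0.317 in edgeR). The others lay between -0.05 for Mag and 0.21 for Ngfr, with Mbp at 0.20, Cnp at 0.18 and Prx at 0.13. The median of the 8 was 0.19, beside 0.03 for all genes. It was 0.034 without young GFP mouse 4, 0.076 without young GFP mouse 1 and 0.30 without young GFP mouse 2.

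Oldest-old against old GFP mice gave 0 of 8 members at an adjusted p of 0.05 in edgeR and in DESeq2, and 0 at an unadjusted p of 0.05, where 0.00562% and 12% of all genes passed. Log2 fold changes ran from -0.39 for S100b (interval -0.94 to 0.16) to 0.38 for Ngfr (-0.38 to 1.14), with a median of -0.13 beside 0.02 for all genes. The median was -0.061 without oldest-old GFP mouse 1, -0.067 without old GFP mouse 4 and -0.21 without old GFP mouse 2.

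**Figure D3:**
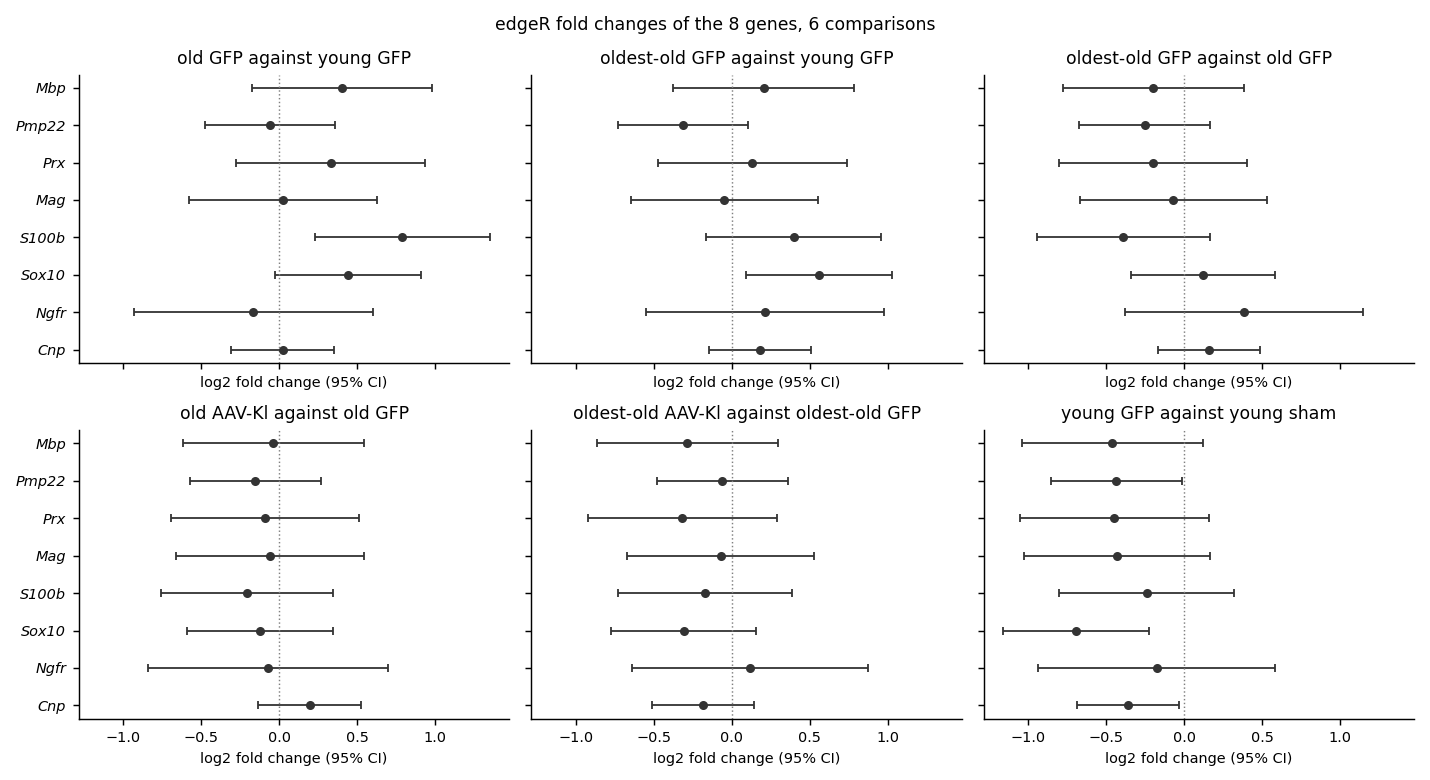
Log2 fold change of the 8 genes in 6 comparisons, with bars giving 95% intervals from the edgeR fit of all 24 libraries. S100b between old and young GFP mice (0.79) and Sox10 between oldest-old and young GFP mice (0.56) have intervals above 0, and all 8 points lie below 0 between young GFP and young sham mice.

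While the levels of the members did not pass the test between ages, the proportion of Pmp22 to Mbp did not overlap between young and older GFP mice. Pmp22 reads per Mbp read in the same library, were 1.32, 1.20, 1.18 and 1.52 in young GFP mice, 0.917, 0.935, 0.879 and 0.972 in old GFP mice, and 0.903, 0.880, 0.968 and 0.811 in oldest-old GFP mice. Means were 1.31 ± 0.157, 0.926 ± 0.0387 and 0.890 ± 0.0647 (SD, n = 4). Both older groups lay wholly below the young one. Young sham mice had 1.33, 1.38, 1.35 and 1.09 Pmp22 reads per Mbp read, also above every old and oldest-old GFP mouse. Old AAV-Kl mice, at 0.849, 0.710, 0.982 and 1.004, stood with the old GFP mice, and oldest-old AAV-Kl mice ranged from 0.936 to 1.28. Fibroblasts also make Pmp22, and a list of 6 fibroblast genes summed to 634 to 936 CPM in young GFP, 509 to 817 in old GFP and 453 to 708 in oldest-old GFP mice. The sum is weighted to the most abundant of them. Against young GFP mice 4 of the 6 had positive log2 fold changes in old GFP mice (median 0.11) and 3 of the 6 in oldest-old GFP mice (median -0.08). Their part in the ratio was not tested.

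The ratio was examined after the levels had been seen and is given without a test. On the log2 scale Pmp22 per Mbp differed by -0.49 between old and young GFP mice and by -0.55 between oldest-old and young GFP mice. Of all genes, 8.61% and 4.21% had a ratio to Mbp that lay wholly lower in these 2 comparisons, and Pmp22 was 1 of 7 members in each. With Prx in place of Mbp the differences were -0.39 and -0.45, and with the mean of the other Schwann cell list -0.34 and -0.54, without overlap in any of them. Prx kept a close proportion to Mbp, between 0.214 and 0.337 reads per Mbp read in 24 libraries, and did not separate any groups compared. Sox10 per Mbp was 0.0804 to 0.0894 in oldest-old GFP mice and 0.0598 to 0.0762 in old GFP mice, the only member ratio without overlap between those groups, where 5.33% of all genes were wholly higher. With the other Schwann cell list as denominator Sox10 overlapped there. No member's ratio to Mbp separated AAV-Kl from GFP mice at either age, or young GFP from young sham mice. With the other Schwann cell list as denominator, 1 of 7 members was wholly higher in old AAV-Kl than in old GFP mice. Between old and young GFP mice 1 of 7 was wholly higher with that list, and 1 of 6 with Prx. The share of all genes was counted for ratios to Mbp only.

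Of the 18 other Schwann cell genes, 5 were wholly lower per Mbp read in old GFP mice (among them Cldn19, Drp2, Ugt8a and Pou3f1) and 3 in oldest-old GFP mice (among them Drp2 and Ugt8a). Of all genes 8.61% and 4.21% were. Cdh19 alone was wholly higher in both.

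**Figure D4:**
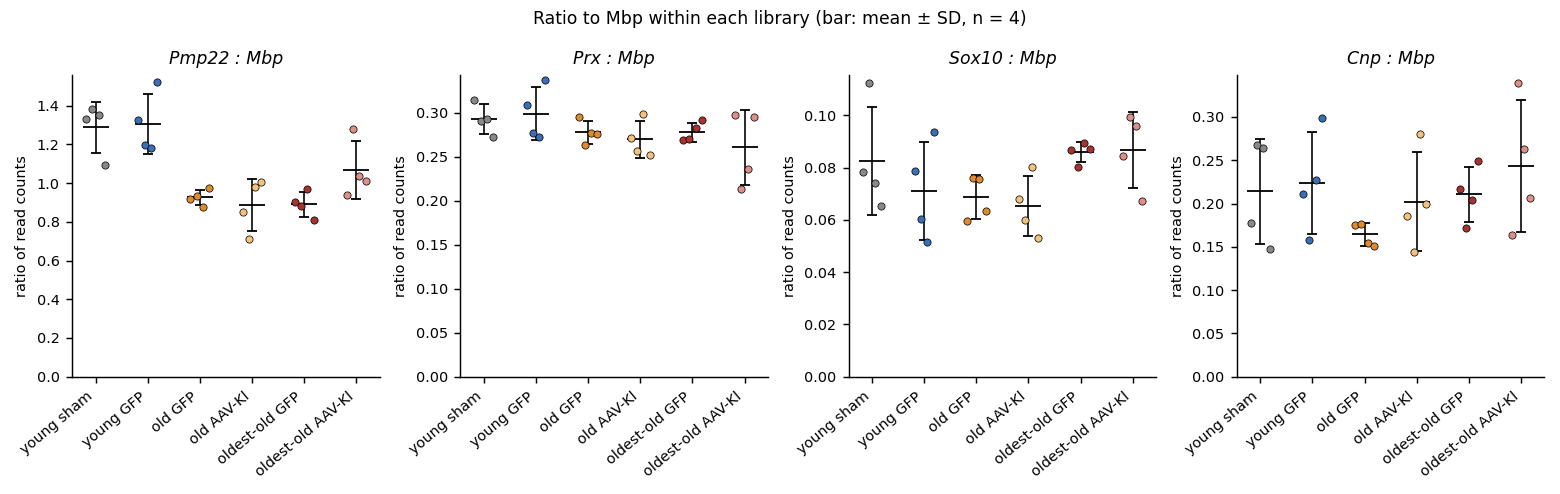
Reads of Pmp22, Prx, Sox10 and Cnp per read of Mbp in the same library, each point 1 mouse and each bar the mean ± SD of 4, in the 6 groups. Pmp22 per Mbp is 1.09 to 1.52 in young mice and at most 1.004 in old GFP, old AAV-Kl and oldest-old GFP mice, and Prx per Mbp stays between 0.214 and 0.337 in all 24 mice.

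Klotho was compared with GFP at both ages. In old mice 0 of 8 members passed an adjusted p of 0.05 in edgeR and in DESeq2, and 0 an unadjusted p of 0.05, where 0% and 2.15% of all genes passed. Log2 fold changes ran from -0.21 for S100b (interval -0.76 to 0.35) to 0.19 for Cnp (-0.13 to 0.52). Mbp stood at -0.04 (-0.62 to 0.54), and with 4 mice a group a true difference anywhere in this interval remains possible. The median was -0.08, beside 0.01 for all genes. It was 0.042 without old AAV-Kl mouse 4, -0.28 without old AAV-Kl mouse 2, -0.14 without old GFP mouse 2 and -0.043 without old GFP mouse 3.

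In oldest-old mice 0 of 8 members passed an adjusted p of 0.05 in edgeR and in DESeq2, and 0 an unadjusted p of 0.05, where 0.0112% and 8.08% of all genes did. Log2 fold changes ran from -0.32 for Prx (interval -0.92 to 0.29) to 0.12 for Ngfr (-0.64 to 0.87), with Sox10 at -0.31 (-0.77 to 0.16), Mbp at -0.28 (-0.86 to 0.29) and a median of -0.18 beside 0.01 for all genes. The median was -0.36 without oldest-old AAV-Kl mouse 1, where 2 members had an unadjusted p under 0.05, -0.11 without mouse 2 of that group, and 0.0031 without its mouse 3, where 4 of 8 were positive. The treated mice were spread widely, with Prx at 16.9, 6.21, 5.52 and 12.8 CPM against 12.4, 13.9, 12.4 and 12.9 in oldest-old GFP mice. Oldest-old AAV-Kl mice 2 and 3 lay below, and mouse 1 above, every GFP mouse of that age. The difference between the Klotho responses at the 2 ages, tested as an interaction, gave 0 of 8 members in edgeR and in DESeq2 at an adjusted p of 0.05 and 0 at an unadjusted p of 0.05, where 0.00562% and 5.76% of all genes passed. It ran from -0.38 for Cnp (interval -0.84 to 0.09) to 0.19 for Ngfr (-0.89 to 1.27).

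Between young GFP and young sham mice all 8 members had negative log2 fold changes. Sox10 had the largest of the 8, at -0.69 (interval -1.16 to -0.22, adjusted p = 0.19 in edgeR). Pmp22 stood at -0.43 (-0.85 to -0.02, adjusted p = 0.354 in edgeR) and Cnp at -0.36 (-0.69 to -0.04, adjusted p = 0.327 in edgeR). Mbp stood at -0.46, Prx at -0.45, Mag at -0.43, S100b at -0.24 and Ngfr at -0.18. In this comparison 0 of 8 members passed an adjusted p of 0.05 in edgeR and in DESeq2 and 3 (Sox10, Pmp22 and Cnp) had an unadjusted p under 0.05 in both, where 0.472% and 13.4% of all genes passed in edgeR.

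The size of these differences depended on young sham mouse 4. Pmp22 was 67.3, 55.4, 59.0 and 95.7 CPM in young sham mice and 42.1, 64.7, 56.8 and 41.6 in young GFP mice. Without young sham mouse 4 the median of the 8 log2 fold changes was -0.20 in place of -0.43, and 1 of 8 was positive. Without the libraries above the keratinocyte limit, which removes young sham mouse 4 and young GFP mice 1 and 3, it was -0.15, and 2 of 8 were positive. Of 6 macrophage genes 6 had negative log2 fold changes (median -0.81, with 4 at an unadjusted p under 0.05), and their summed level was 31.8 to 52.5 CPM in young GFP and 49.7 to 96.1 CPM in young sham mice. Of 6 endothelial genes 6 were negative (median -0.26, with 3 at an unadjusted p under 0.05), with summed levels of 256 to 289 and 301 to 321 CPM. Other lists shifted too. Positive log2 fold changes were found for 0 of 9 hepatocyte genes (5 at an unadjusted p under 0.05), 0 of 5 T cell, 1 of 6 fibroblast and 1 of 7 adipocyte genes. They were found for 6 of 6 muscle fiber and 10 of 10 keratinocyte genes. Of all genes 13.4% had an unadjusted p under 0.05 in edgeR. In each list 0 genes passed an adjusted p of 0.05 in edgeR. The part of these cells and of keratinocyte RNA was not tested, and the 8 members move together, so that their shared sign is no sum of 8 separate measurements.

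Among the 18 other Schwann cell and myelin genes, all past the filter, 2 were higher in old than in young GFP mice at an adjusted p of 0.05 and 0 lower, with a median log2 fold change of 0.28. Of all genes 3.21% were higher at that threshold in edgeR. Cdh19, a cadherin of Schwann cells and their precursors, rose from 1.33, 1.66, 1.55 and 1.14 CPM to 2.61, 2.63, 2.68 and 2.63 CPM, by 0.89 on the log2 scale (adjusted p = 0.00601 in edgeR). Its groups did not overlap, and without the libraries with keratinocyte RNA the log2 fold change was 0.89 with an adjusted p of 0.0693 in edgeR. That fit lacks young GFP mice 1 and 3 and passed fewer of all genes. Between old and young GFP mice it passed 162 of 18343 genes, in place of 837 of 17803. Between oldest-old and young GFP mice it passed 848, in place of 2649. Gjb1, a connexin of myelin that liver cells also make in quantity, had a log2 fold change of 2.31 (adjusted p = 0.0162 in edgeR), with 3.82, 0.333, 0.536 and 1.63 CPM in old GFP mice. The high libraries are old GFP mice 1 and 4, those with hepatocyte RNA, and without the libraries with hepatocyte RNA its log2 fold change was 0.42 (adjusted p = 0.718 in edgeR). Its adjusted p was 0.117 in edgeR without old GFP mouse 1, 0.0593 without young GFP mouse 1 and 0.0625 without young GFP mouse 4.

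Against young GFP mice, oldest-old GFP mice had 4 of the 18 higher and 0 lower, with a median of 0.13, where 8.8% of all genes were higher. Cdh19 rose by 1.05 on the log2 scale to 2.97, 2.46, 2.79 and 3.50 CPM (adjusted p = 6.85e-04 in edgeR). Egr2 rose by 1.72 to 3.39, 6.08, 5.58 and 1.12 CPM from 0.655, 1.35, 1.60 and 1.26 (adjusted p = 0.0140 in edgeR), and oldest-old GFP mouse 4 lay within the young range. Egr2 is also an immediate early gene of muscle and immune cells. Erbb3, a receptor for the neuregulin that axons present to Schwann cells, rose by 0.58 (adjusted p = 0.0272 in edgeR), and Gldn, which gathers sodium channels at the node, by 0.95 (adjusted p = 0.0417 in edgeR). Young sham mice overlapped the oldest-old GFP mice in the levels of Erbb3 and Egr2 but not in that of Cdh19. Per Mbp read, Erbb3 was 0.0891 to 0.154 in young sham and 0.0851 to 0.164 in oldest-old GFP mice. Single mice bore on 3 of these calls. The adjusted p of Egr2 in edgeR was 0.054 without young GFP mouse 1, that of Erbb3 was 0.0567 to 0.0998 without oldest-old GFP mouse 1 or 4 or young GFP mouse 1, 2 or 4, and that of Gldn 0.0572 to 0.149 without oldest-old GFP mouse 1, 3 or 4 or young GFP mouse 1, 3 or 4. Without the libraries with keratinocyte RNA 2 of the 18 passed, Cdh19 among them, with Egr2 at an adjusted p of 0.0804 and Gldn at 0.268 in edgeR. Drp2, a partner of the protein of Prx and among the 4 genes of the list with the most reads, had 15.3 ± 2.29, 15.7 ± 1.97 and 13.6 ± 1.89 CPM (SD, n = 4) in young, old and oldest-old GFP mice and did not pass the test.

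Genes of non-myelinating, immature and repair Schwann cells were scarce, with 8 of 10 past the filter. Relative to young GFP mice, 3 were higher at the old age and 3 at the oldest-old age, with 0 lower at either and medians of 0.74 and 0.996. Of all genes 3.21% and 8.8% were higher at an adjusted p of 0.05 in edgeR. Gdnf, a growth factor for motor neurons that Schwann cells and muscle can make, rose from 0.585, 0.410, 0.354 and 0.193 CPM to 1.05, 1.35, 0.874 and 0.755 in old mice and to 2.76, 1.04, 1.72 and 3.27 in oldest-old mice. Neither older group overlapped the young one, and the log2 fold changes were 1.39 and 2.51 (adjusted p = 0.0497 and 4.34e-04 in edgeR). Shh, a signal that injured nerve produces, had 0 to 1 reads per library in young GFP mice, 4 to 27 in old and 3 to 24 in oldest-old GFP mice (adjusted p = 0.0109 and 0.00809 in edgeR), and so few reads give no usable fold. Artn, also a growth factor, passed at the old age, at 1.92 (edgeR, adjusted p = 0.0470), and Sox2, a factor of immature Schwann cells, at the oldest-old age, at 1.64 (edgeR, adjusted p = 0.0287). In old mice the adjusted p of Gdnf in edgeR was 0.0506 to 0.148 without any 1 mouse of either group, and that of Artn 0.0709 to 0.182 without old GFP mouse 1, 2 or 3 or young GFP mouse 1, 3 or 4. Sox2 stood at 0.0597 to 0.0861 without oldest-old GFP mouse 1 or 3 or young GFP mouse 2, 3 or 4. Without the libraries with keratinocyte RNA 0 of the 8 passed in old and 1 in oldest-old mice. Beside them, 6 of 6 macrophage genes had positive log2 fold changes at both ages, with medians of 0.79 and 0.84, 0 past an adjusted p of 0.05 in edgeR, and summed levels of 31.8 to 52.5 CPM in young, 45.0 to 96.2 in old and 57.0 to 84.2 in oldest-old GFP mice. The repair genes are not specific to Schwann cells, and their cell of origin in these libraries was not tested.

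The axon itself left little RNA in muscle. Nefl, Nefm, Nefh, Chat and Snap25, transcripts of the motor neuron, whose cell body lies in the spinal cord, were under the filter, and 3 of 8 axon genes were past it. Of these 3, 1 was higher at each age at an adjusted p of 0.05 in edgeR, where 3.21% and 8.8% of all genes were. Against young GFP mice the 3 ran from -0.39 to 1.51 in old mice (median 0.48). In oldest-old mice they ran from 0.22 to 1.83 (median 0.26). Uchl1, a deubiquitinase abundant in neurons, rose from 1.92, 2.19, 1.55 and 1.45 CPM in young GFP mice to 4.44, 5.70, 7.08 and 3.00 in old and 7.86, 6.34, 4.995 and 6.01 in oldest-old GFP mice. Neither older group overlapped the young one, and the log2 fold changes were 1.51 and 1.83 (adjusted p = 0.00578 and 5.14e-04 in edgeR). Without the libraries with keratinocyte RNA that in old mice was 1.45 (adjusted p = 0.0571 in edgeR). In the perineurium list 6 of 6 genes were past the filter and 1 was higher at each age at that threshold, with medians of 0.43 and 0.41. It was Slc2a1, a glucose transporter of perineurium and of muscle fibers. Slc2a1 rose by 0.50 from young to old (edgeR, adjusted p = 0.0386, and 0.0532 to 0.150 without old GFP mouse 1 or 2 or young GFP mouse 1, 3 or 4) and by 0.67 from young to oldest-old (edgeR, adjusted p = 0.00302).

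On the side of the fiber, 9 of 9 genes of the response to denervation were past the filter. Between oldest-old and young GFP mice 8 of 9 rose and 0 fell, with a median of 1.12, while 0 of 8 members passed the test there. Of all genes 8.8% were higher at an adjusted p of 0.05 in edgeR. Chrng, the fetal subunit of the acetylcholine receptor, rose by 3.61 on the log2 scale (adjusted p = 0.00978 in edgeR), Myog by 1.60 (adjusted p = 0.00469 in edgeR) and Ncam1 by 0.80 (adjusted p = 0.00987 in edgeR). Myog was 7.07, 3.98, 5.20 and 4.95 CPM in young GFP mice and 18.6, 15.4, 16.9 and 13.2 in oldest-old GFP mice, without overlap. In old mice 0 of 9 passed in edgeR and 1 in DESeq2, 3 had an unadjusted p under 0.05 in edgeR, and the median was 0.64. Of all genes 4.7% passed there in edgeR and 19.1% had an unadjusted p under 0.05. Without the libraries with keratinocyte RNA 4 of 9 passed in oldest-old mice, with Ncam1 at an adjusted p of 0.0517 in edgeR. Across the 24 libraries the mean of this list had r -0.41 with the score of the members (rho -0.31), and -0.03 without the 2 libraries farthest from the median. With group means removed r was -0.50 over all 24 libraries. In the comparisons of oldest-old with old GFP, AAV-Kl with GFP and young GFP with young sham mice, and in the interaction, 0 genes of the other Schwann cell, repair, perineurium, axon and denervation lists passed an adjusted p of 0.05 in edgeR. With AAV-Kl in oldest-old mice 9 of 9 denervation genes had positive log2 fold changes (median 0.46). Of these, 3 had an unadjusted p under 0.05 in edgeR, where 8.08% of all genes did.

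**Figure D5:**
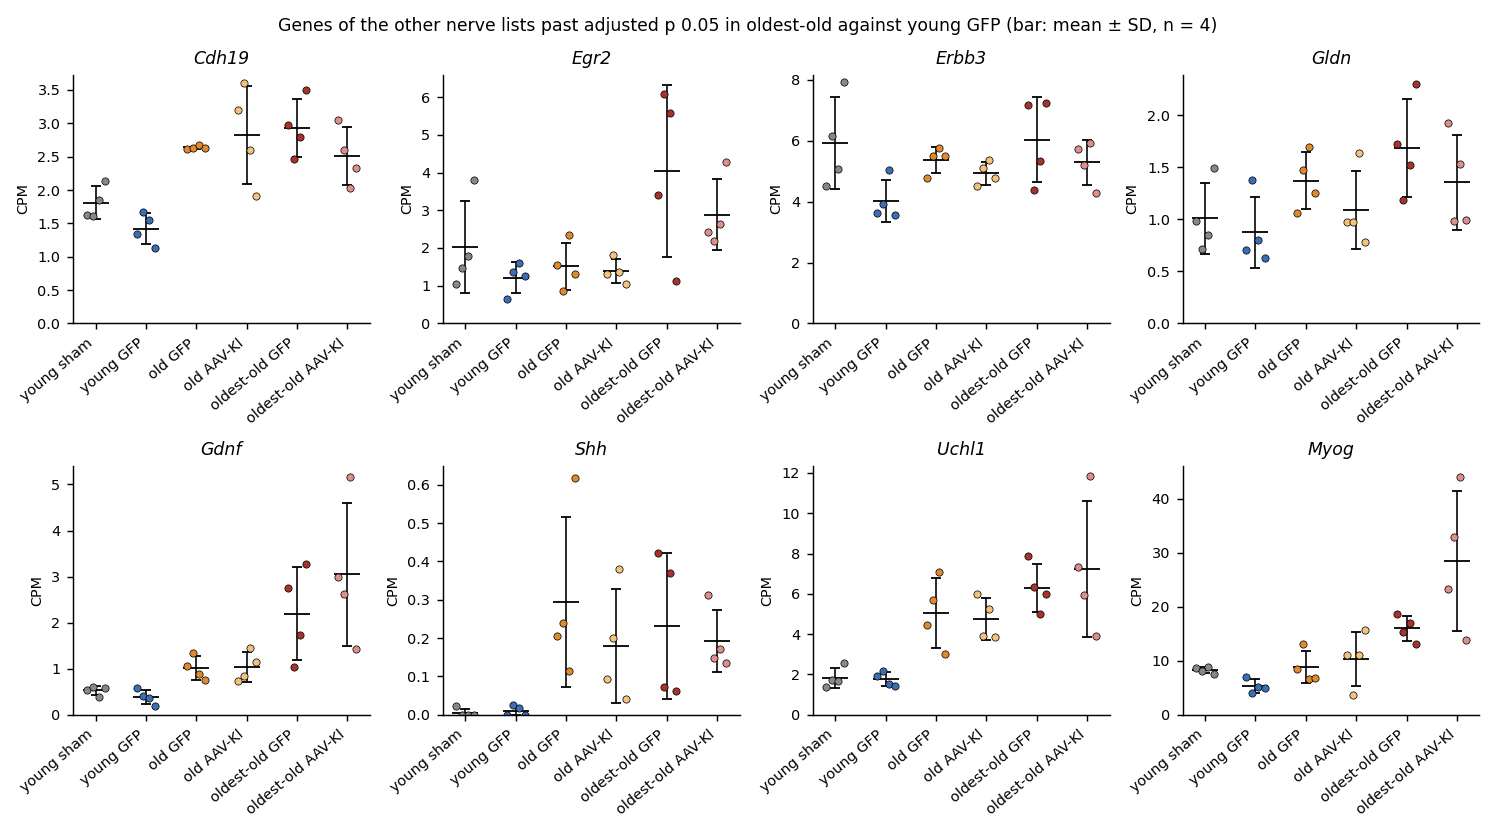
Levels in CPM of Cdh19, Egr2, Erbb3, Gldn, Gdnf, Shh, Uchl1 and Myog, each point 1 mouse and each bar the mean ± SD of 4, in the 6 groups. Cdh19, Gdnf and Uchl1 lie higher in each old and oldest-old GFP mouse than in each young GFP mouse, and Egr2 is high in 3 of 4 oldest-old GFP mice.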

How the data were processed

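RNA of whole gastrocnemius from 24 mice, 4 in each of 6 groups, was sequenced. The deposited counts are reads per gene that the authors made with STAR 2.7.0a on GRCm38 (mm10). The column without regard to strand was used (49.8 to 50.4% of stranded reads fell on the first strand), and 23.0 to 25.3% of reads, in rows that name no gene, were left out. Genes passing filterByExpr (17803 of 55385) were fitted in edgeR 4.0.16 (R 4.3.3) with TMM scaling and the quasi-likelihood F test, all 24 libraries in 1 fit without covariates, and Benjamini-Hochberg adjustment over all genes tested. DESeq2 1.42.0 was an alternative. Log2 CPM used a prior count of 2. Each library is a mouse, so p-values measure the spread between mice. The fit was tested on simulated data. Named are the 8 members, at most 4 genes with adjusted p under 0.05 for each list and comparison, the 4 other Schwann cell genes with the most reads, and the 10 genes most like the score. The members and lists were chosen with earlier results of these data known. Leaving out libraries with foreign RNA, and ratios to Mbp, were chosen after seeing the data. Some genes of the lists are not reported here.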

Additional observations from a re-analysis of the deposited data

Results flagged for a closer look

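Each member was examined in each of the 6 groups for 1 mouse that stands far from the other 3, as the gap to the nearest mouse divided by the range of the group on the log2 CPM scale against Dixon's critical value for 4 samples. Of 48 groups of values 4 passed it, and chance passes about 1 in 20. Ngfr in young sham mouse 4, at 5.06 CPM, gave 0.866. This library also carries keratinocyte RNA and has the highest level of 6 other members. Young GFP mouse 4 was the lowest of its group for Mag (0.845 CPM, 0.892) and for Ngfr (0.966 CPM, 0.832). Sox10 was highest in young GFP mouse 2 (3.26 CPM, 0.883). The cause was not tested in any of them.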

How the results depend on the processing

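Over 48 fold changes of members, 808 values were recomputed. The 2 past an adjusted p of 0.05 came from edgeR fits of the compared groups alone, 1 member in old mice (S100b, 0.0441) and 1 in oldest-old mice (Sox10, 0.0338). Over other settings S100b in old mice had an adjusted p up to 0.376, and Sox10 in oldest-old mice up to 0.370. No alternative scaling moved the median of all genes by over 0.1.

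Against young GFP, old mice had 1 denervation gene past the threshold in DESeq2 and 1 with compared groups alone. Of repair genes old mice had 1 with no filter on low counts, with compared groups alone or without young sham, and 0 with the first strand column or without libraries with keratinocyte or hepatocyte RNA. Of other Schwann cell genes they had 1 with compared groups alone or without hepatocyte RNA, and 0 without keratinocyte RNA. Oldest-old mice had 1 repair gene with the first strand column, compared groups alone or no keratinocyte RNA, 1 and 2 other Schwann cell genes with compared groups alone and without keratinocyte RNA, and 4 denervation genes without keratinocyte RNA. Leaving out 1 mouse at a time gave 1 to 2 other Schwann cell and 1 to 2 repair genes in old mice, and 1 to 4, 2 to 4 and, for denervation, 5 to 8 in oldest-old mice. Fits without keratinocyte RNA hold fewer young GFP mice and passed fewer of all genes in both comparisons. The cause was not tested.

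Of the 808 values, 45 reversed. Fits to the first strand column gave -0.0070 for Mag and -0.014 for Cnp in old mice, -0.042 for Cnp in oldest-old mice, -0.028 for Cnp between those ages, 0.056 for Mag with AAV-Kl in old and 0.037 for Cnp with AAV-Kl in oldest-old mice. Without keratinocyte RNA Ngfr in old mice was 0.0077, Mag in oldest-old mice 0.070, and S100b and Ngfr in young GFP against sham 0.067 and 0.33. Without hepatocyte RNA Mag in old mice was -0.11, Mag and Sox10 between old and oldest-old 0.051 and -0.012, and Mbp, Prx and Mag with AAV-Kl in old mice 0.079, 0.084 and 0.23. Leaving out 1 mouse gave, against young GFP, -0.091 to 0.13 for Cnp, -0.15 to 0.068 for Pmp22 and -0.10 to 0.11 for Mag in old mice, and -0.17 to 0.071 for Mag and -0.036 to 0.35 for Ngfr in oldest-old mice. Mag between those ages ran from -0.16 to 0.060, and Ngfr in young GFP against sham from -0.34 to 0.52. With AAV-Kl in old mice Ngfr ran from -0.22 to 0.074, Mbp from -0.30 to 0.071, Mag from -0.24 to 0.11, Prx from -0.31 to 0.039 and Sox10 from -0.32 to 0.045, and in oldest-old mice Mag ran from -0.32 to 0.16, Ngfr from -0.021 to 0.29, Pmp22 from -0.23 to 0.12 and S100b from -0.41 to 0.058.

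Replicate numbers do not pair mice (mean correlation of same-numbered mice -0.16 to 0.013 over the comparisons). With the number as a block, 0 members passed in every comparison, 2 and 3 other Schwann cell genes in old and oldest-old mice, and 2 and 4 repair genes. None of 334 values of other named genes reversed. At 25 to 107 reads Mag, and at 0 to 27 reads Shh, are limited by depth.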
